A study of Mus musculus with 8 samples.

Results

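The genes described here are the FOXO transcription factor genes Foxo1, Foxo3 and Foxo4, the ubiquitin ligase genes Fbxo32, Trim63, Fbxo30, Fbxo21, Fbxo31 and Fbxo40, and Eif4ebp1. They were chosen by name, as all non-control probes of an expression array that carry 1 of these 10 gene names. The rule found 19 probes among 56605 distinct probes, and the array holds 37074 distinct gene names. Signals came from tibialis anterior, the shin muscle that lifts the foot, of male C57BL/6J mice aged 14 weeks. The 4 P. gingivalis arrays are from mice given Porphyromonas gingivalis, a bacterium of the periodontal pocket, by mouth for 6 weeks. The 4 control arrays are from mice labelled control, and what these were given by mouth is not stated in the sources used here. Per the labels' protocols both groups ate a high-fat diet, so no array shows muscle on another diet. The number of bacteria is not given in the sources used here, and nothing in the labels says outright that each array is a separate mouse. P-values then measure the spread between these samples.

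FOXO proteins are forkhead transcription factors that insulin and IGF signalling restrains. The kinase AKT phosphorylates them and keeps them out of the nucleus, and when its activity drops they enter it and switch on genes of protein breakdown. In skeletal muscle the best known of these are Fbxo32 (atrogin-1) and Trim63 (MuRF1), the ubiquitin ligases whose transcripts rise in fasting, disuse and many wasting states. The array reads transcript levels and not the phosphorylation or location of the FOXO proteins.

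The stretches below show what the array reads for the pair of genes that come nearest to a difference between the groups. Each is the first 30 bases of a 60-base probe, as the scanner file writes it. Both Foxo1 probes lie on chromosome 3 (mm9, plus strand), at chr3:52150946-52151005 and chr3:52153289-52153348. The Fbxo32 probe lies on the minus strand at chr15:58007497-58007556.
Foxo1 A_55_P2798990: tgacagcaggaactgaggagcattccaaag
Foxo1 A_52_P453884: ttctgggagaatgttcgctttctggtctat
Fbxo32 A_66_P135285: tatttgcacacctttcttgcatgatgaact

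The promoter of Trim63 is shown because it alone among the 8 windows searched holds the forkhead letters. RefSeq (GRCm38.p6) gave 8 promoter windows, each from 250 bases before to 50 after a gene's start, for 7 of the 10 genes. Fbxo40 has 2 windows, and Foxo4, Fbxo32 and Eif4ebp1 are not shown. The windows were searched on both strands for the forkhead core TGTTTAC, which occurs in 3.65% of the 32851 windows of all genes, and for the insulin response element CAAAACA, which occurs in 6.28%. The core was found in 1 of the 8 windows and the insulin response element in 0. The match in the Trim63 window, at chr4:134314870-134315169 on the plus strand, lies from 194 to 188 bases before the start and is in capitals.
Trim63 promoter: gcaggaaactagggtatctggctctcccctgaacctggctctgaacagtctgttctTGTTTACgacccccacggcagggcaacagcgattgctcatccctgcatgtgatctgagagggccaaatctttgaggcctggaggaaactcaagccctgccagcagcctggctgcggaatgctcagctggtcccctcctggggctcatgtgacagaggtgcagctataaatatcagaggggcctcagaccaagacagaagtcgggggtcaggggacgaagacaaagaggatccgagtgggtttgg
A match of letters is a description of the sequence only.

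The arrays were closely alike, with correlations of 0.9909 to 0.9949 over tested probes. All P. gingivalis arrays were dimmer before scaling, with a 75th percentile of the processed signal of 238 to 255, against 275 to 306 in the controls (exact permutation test, two-sided, p = 0.0286, the lowest that 4 against 4 allows). All 8 arrays shared 1 slide and 1 scan. The P. gingivalis arrays filled 1 row of the slide and the controls the other, so an effect of row cannot be told apart from one of group. A second deposited table of the same arrays carries other group labels for 4 of the 8. Its columns matched the scanner files in the order control 1, P. gingivalis 1, control 2, P. gingivalis 2 and so on for all 8 columns. The groups here are those of the scanner files, and directions that turn with the other labels are given beside the result or with the processing alternatives. All 10 fibre markers, such as Ckm and Acta1, were well above background on all arrays. Their summed signal was 6726 to 7033 times the 75th percentile on P. gingivalis arrays and 6181 to 6684 times on controls. Fibroblast and tendon markers were higher on average for 9 of 9 (summed signal 175 to 201 on P. gingivalis arrays and 137 to 180 on controls) and endothelial markers for 0 of 7 (12.5 to 16.0 and 15.0 to 17.9). The 6 neutrophil markers tested summed to 1.94 to 2.08 on P. gingivalis arrays and 1.66 to 4.69 on controls, and Ngp and Retnlg were not tested. The part of these cells in the results was not tested. Whole muscle holds several cell types, and in it fewer cells of a type and less RNA per cell cannot be told apart.

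No member differed between the groups past the threshold of an adjusted p of 0.05 by limma. Foxo1 had higher average signal in P. gingivalis muscle, and Fbxo32 lower. Each had a probe with an unadjusted p under 0.05. Trim63, the other classical atrophy ligase, averaged nearly the same in both groups of the scanner files and varied widely within each. With the groups of the second table the log2 difference on its brightest probe was −0.43 (unadjusted p = 0.103 by limma). Of the 19 probes, 18 passed the filter on dim signals and were tested, with at least 1 for each gene. At an unadjusted p under 0.05 there were 2 of 18 member probes, Foxo1 A_52_P453884 (higher) and Fbxo32 (lower), 1 in each direction. Over all 31649 tested probes 11.2% were, 4.84% higher and 6.36% lower, so the members' share was near that of the array as a whole. After adjustment 0 of 18 and 0 of 31649 (0%) passed.

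**Figure D1:**
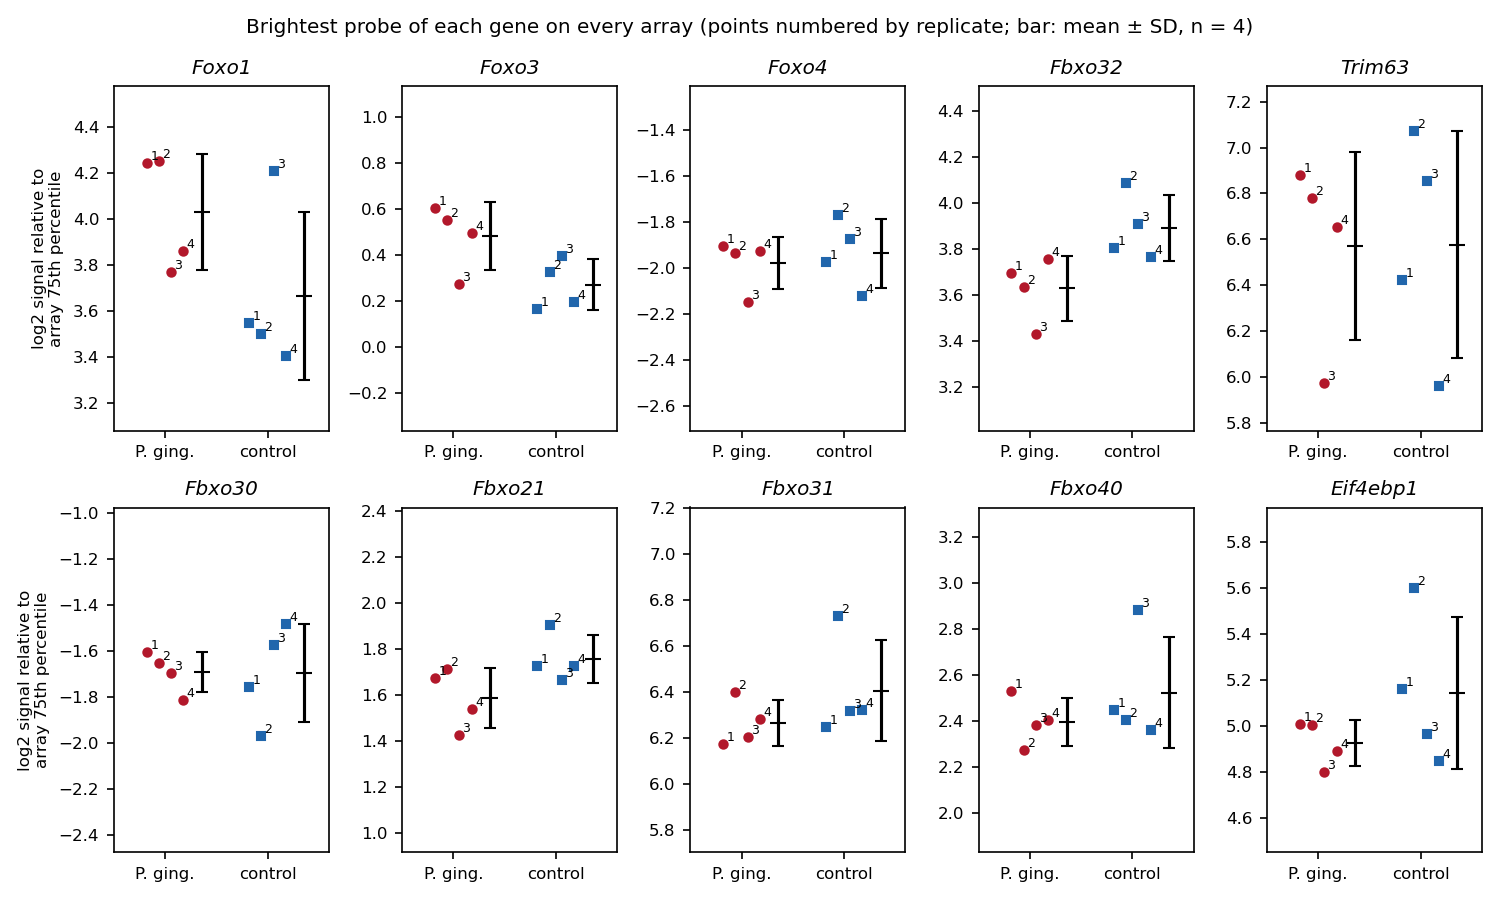
Log2 signal relative to the array's 75th percentile (vertical axis, each panel spanning the same range of log2 units) for the brightest tested probe of each of the 10 genes. Red circles are the 4 P. gingivalis arrays, blue squares the 4 control arrays, numbered by replicate, with mean and SD beside them. For Foxo1 a single control array, control 3, lies among the P. gingivalis arrays, and for Trim63 both groups spread over about the same range.

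Foxo1 encodes the FOXO factor most tied to insulin action. It has 2 probes, both well above background on all arrays. On probe A_52_P453884 its log2 signal relative to the 75th percentile was 3.488, 3.476, 2.998 and 3.021 on P. gingivalis arrays 1 to 4, and 2.581, 2.554, 3.297 and 2.401 on control arrays 1 to 4. The groups overlapped because of control 3 alone, which lay above P. gingivalis 3 and 4. The other probe, A_55_P2798990, gave 4.25, 4.25, 3.77 and 3.86 in P. gingivalis muscle and 3.548, 3.4998, 4.209 and 3.407 in control muscle, with the same arrays high and low. The log2 difference was 0.54 ± 0.21 (SE) on A_52_P453884, a fold of 1.45 with a 95% confidence interval of 1.04 to 2.03 (unadjusted p = 0.0336, adjusted p = 0.418 by limma). On A_55_P2798990 it was 0.37 ± 0.20, a fold of 1.29 with an interval of 0.945 to 1.76 (adjusted p = 0.512 by limma). With any 1 array left out, the log2 differences ran from 0.44 to 0.73 and from 0.28 to 0.55. They were lowest without control 4 (adjusted p = 0.518 and 0.637 by limma). They were highest without control 3 (adjusted p = 0.253 and 0.265 by limma). With the groups of the second table they turned to −0.10 and −0.07.

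Over the 8 arrays, 5 other genes followed the brightest Foxo1 probe most closely among 16029 ranked by Pearson's r, given here as a description. Prkcd, a protein kinase C, had an r of 0.98 and stayed at 0.97 or above when any 1 array was left out. The genes were chosen by r on these same arrays, so this follows in part from the choice. Aoah, which encodes an enzyme of myeloid cells that removes acyl chains from bacterial lipopolysaccharide, had an r of 0.98 and a log2 difference of 0.34. Xntrpc, Tmcc2 and Ell2 followed at 0.98, 0.97 and 0.97. Of 8 macrophage markers, 7 were higher on average in P. gingivalis muscle and 1, Adgre1, lower. The share of all genes that were higher is not given here, nor is the likeness of each marker to Foxo1. The summed signal of the macrophage markers was 35.2, 27.1, 29.3 and 25.4 times the 75th percentile on P. gingivalis arrays 1 to 4. On control arrays 1 to 4 it was 21.8, 26.0, 28.1 and 27.0 times. Control 3 had the highest of the control sums, P. gingivalis 4 lay below controls 2 to 4, and all 8 markers were well above background on all arrays. The macrophage sums were not alone in this. Control 3 was also the highest control for the fibroblast and tendon, slow fibre, adipocyte and erythroid sums, but not for the other marker sums. Fibroblast and tendon sums were 201, 201, 190 and 175 on P. gingivalis arrays and 152, 137, 180 and 171 on controls. Of the 6 neutrophil markers tested, S100a8 and S100a9 set the same control array apart from the others. All 6 are named here after their values were seen. The log2 signal of S100a9 was −2.88, −2.31, −2.74 and −3.92 on P. gingivalis arrays 1 to 4, and 0.653, 0.670, −2.644 and 1.202 on control arrays 1 to 4. Control 3 thus lay among the P. gingivalis arrays for S100a9 (adjusted p = 0.329 by limma). S100a8 lay between −6.89 and −4.10 on P. gingivalis arrays, 2 of them well above background, at −4.44 on control 3 and between −1.21 and −0.21 on the other controls. The other neutrophil markers did not follow. Elane stood higher on all P. gingivalis arrays, at 0.387 to 0.619 against 0.048 to 0.288 on controls (log2 difference 0.36 ± 0.08 SE, adjusted p = 0.323 by limma). Ly6g, Mpo and Camp differed by −0.10 ± 0.14, −0.14 ± 0.22 and −0.04 ± 0.09, with overlapping groups. The part of these cells in the Foxo1 signal was not tested.

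Foxo3, which encodes the factor best known for driving the atrophy ligases and autophagy genes in muscle, was read by 3 probes. On the brightest, A_65_P08314 (chr10:41901997-41902056, mm9, minus strand), the log2 signal was 0.61, 0.55, 0.27 and 0.50 in P. gingivalis muscle and 0.16, 0.33, 0.40 and 0.20 in control muscle. P. gingivalis 3 fell among the controls, and the other 3 lay above all of them. The difference of 0.21 ± 0.09 (SE) on the log2 scale had an adjusted p of 0.446 by limma. The dimmer probes gave 0.10 ± 0.17 and −0.09 ± 0.26. The last of these was well above background on 3 of 4 P. gingivalis arrays and 4 of 4 control arrays. The estimates on the 3 probes thus did not share a sign. The interval of the dimmest, −0.69 to 0.51 on the log2 scale, held the differences on the others. A_65_P08314 turned to −0.07 with the groups of the second table.

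Foxo4, an X-linked relative, had 1 probe well above background on all arrays and 1 on none. The measured probe, A_51_P200875 (chrX:98454216-98454275, mm9), stood at −1.90, −1.93, −2.15 and −1.92 in P. gingivalis muscle and −1.97, −1.77, −1.87 and −2.12 in control muscle. The groups overlapped over most of their range, and the log2 difference was −0.04 ± 0.09 (SE, adjusted p = 0.891 by limma).

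Fbxo32 encodes atrogin-1, the F-box subunit of an SCF ubiquitin ligase that acts on MyoD and the translation factor eIF3f. Its single probe read 3.70, 3.64, 3.43 and 3.76 in P. gingivalis muscle and 3.80, 4.09, 3.91 and 3.77 in control muscle on the log2 scale. It was the member probe whose groups did not overlap, 1 of 18 (5.56%), against 6.67% of all tested probes (3.01% with P. gingivalis arrays above the controls, 3.66% with them below). The gap between the lowest control and the highest P. gingivalis array was 0.0061 log2 units. It was 0.0535 with normexp background correction and 0.0242 with quantile normalization. With the arrays centred on their medians the groups overlapped by 0.03 units, and with the 75th percentile taken over distinct probes by 0.02. The log2 difference was −0.26 ± 0.10 (SE), a fold of 0.835 with an interval of 0.714 to 0.976 (unadjusted p = 0.0285, adjusted p = 0.408 by limma). It stayed negative under all 20 alternatives, from −0.35 to −0.05, and the lowest adjusted p among them was 0.0648, with normexp background correction. The changes of filter, the intensity trend and the replicate block could not move it. It came nearest to 0 under the other labels. The difference was −0.05 in the second table under its own labels and −0.09 for the scanner files with its groups (unadjusted p = 0.693 and 0.521 by limma).

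The genes closest to Fbxo32 over the 8 arrays were Rbm17 and Zcchc2, with an r of 0.97 and 0.96, followed by Mettl8, Tprkb and Bcr. Leaving out any 1 array kept all 5 at 0.90 or above, which follows in part from choosing them by r on these same arrays. None of the 5 is a ligase, and neither Trim63 nor Foxo1 was among them. With 16029 genes ranked, a gene can vary with Fbxo32 and still miss the first 5. Their absence thus does not show whether they varied with Fbxo32.

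Trim63 encodes MuRF1, a RING-finger ligase of the sarcomere that acts on thick-filament proteins. Its brightest probe, A_52_P517224 (chr4:133885025-133885084, mm9), read 6.88, 6.78, 5.98 and 6.65 in P. gingivalis muscle and 6.42, 7.07, 6.86 and 5.96 in control muscle. P. gingivalis 3 and control 4 stood low and the other 6 arrays between 6.42 and 7.07, so the spread ran across the groups. The log2 difference was −0.01 ± 0.28 (SE), with an interval of 0.643-fold to 1.54-fold (adjusted p = 0.996 by limma). Differences of up to about that size in either direction are therefore not excluded. The smallest difference that 4 arrays a group could detect was not computed. Probe A_55_P2106745 had the same low arrays, at 4.18 for P. gingivalis 3 and 4.27 for control 4, and a difference of −0.06 ± 0.30. The third probe, A_51_P115335, was low on P. gingivalis 3 (0.28) but highest among the controls on control 4 (1.35), so it did not follow the other 2 there. Its difference was −0.16 ± 0.23. The near equality of the groups depended on the labels. With the groups of the second table the differences on the 3 probes, in the same order, were −0.43, −0.40 and −0.27. Their unadjusted p was 0.103, 0.167 and 0.258 by limma. On the 4 arrays whose labels agree the differences were −0.43, −0.46 and −0.42 (unadjusted p = 0.262, 0.253 and 0.197 by limma).

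**Figure D2:**
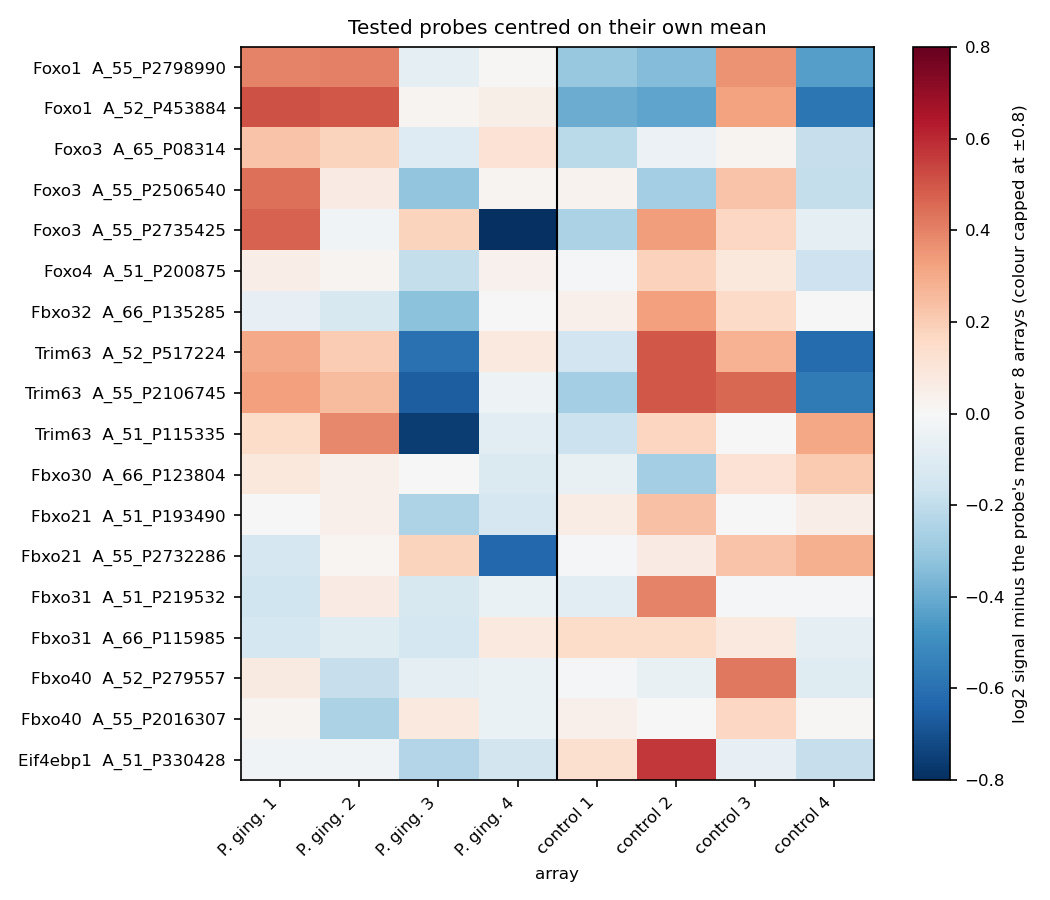
Log2 signal of the 18 tested probes (rows) on the 8 arrays (columns, P. gingivalis left of the line and control right), each row centred on its own mean. Red is above that mean and blue below. Both Foxo1 probes are high on P. gingivalis 1, P. gingivalis 2 and control 3. The 2 brighter Trim63 probes are low on P. gingivalis 3 and control 4.

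The remaining F-box ligase genes had small differences. Fbxo21 encodes the ligase called SMART, a FOXO-dependent ligase needed for full muscle loss after denervation in mice. Its brighter probe, A_51_P193490, read 1.67, 1.71, 1.42 and 1.54 in P. gingivalis muscle and 1.73, 1.91, 1.67 and 1.72 in control muscle. The groups overlapped only through P. gingivalis 1 and 2, which lay just above control 3. The log2 difference was −0.17 ± 0.09 (SE, adjusted p = 0.499 by limma), and the dimmer probe gave −0.28 ± 0.17, or −0.12 without P. gingivalis 4.

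Fbxo30 encodes MUSA1, a ligase that BMP signalling holds down in muscle. Its probe is annotated at chr10:11011329-11015032 (mm9), a span longer than the probe. Its log2 signal ranged from −1.81 to −1.61 in P. gingivalis muscle and from −1.97 to −1.48 in control muscle. All P. gingivalis arrays lay within the control range, and the difference was 0.00 ± 0.11. The interval of 0.843-fold to 1.19-fold bounds it.

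Fbxo31 encodes an F-box protein known for degrading cyclin D1 after DNA damage. Its brighter probe ranged from 6.17 to 6.40 in P. gingivalis muscle and from 6.25 to 6.73 in control muscle, where control 2 stood alone at the top. The log2 difference was −0.14 ± 0.11 (SE, adjusted p = 0.664 by limma), and its dimmer probe gave −0.15 ± 0.08. Without control 2 the brighter probe was at −0.03.

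Fbxo40 encodes a muscle-specific F-box protein that targets IRS1 after IGF1 stimulation. Its brighter probe ranged from 2.28 to 2.53 in P. gingivalis muscle and from 2.36 to 2.88 in control muscle, with control 3 as the single high value. The differences on its 2 probes were −0.13 ± 0.12 and −0.11 ± 0.09, and both turned positive, to 0.09 and 0.10, with the groups of the second table. Without control 3 the brighter probe was at −0.0063, and without P. gingivalis 2 the other was at −0.04. Of the 11 tested probes of the 6 ligase genes, 10 had a negative difference and 0 passed adjustment. Several of these probes read the same gene, and all come from the same arrays, so they are not independent. Control 2 was the highest array on the brightest probe of Fbxo32, Trim63, Fbxo21 and Fbxo31. The median log2 difference over all tested probes was itself −0.0155, and the share of them with a negative difference is not given here. Whether the ligase probes were lower as a set was not tested.

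**Figure D3:**
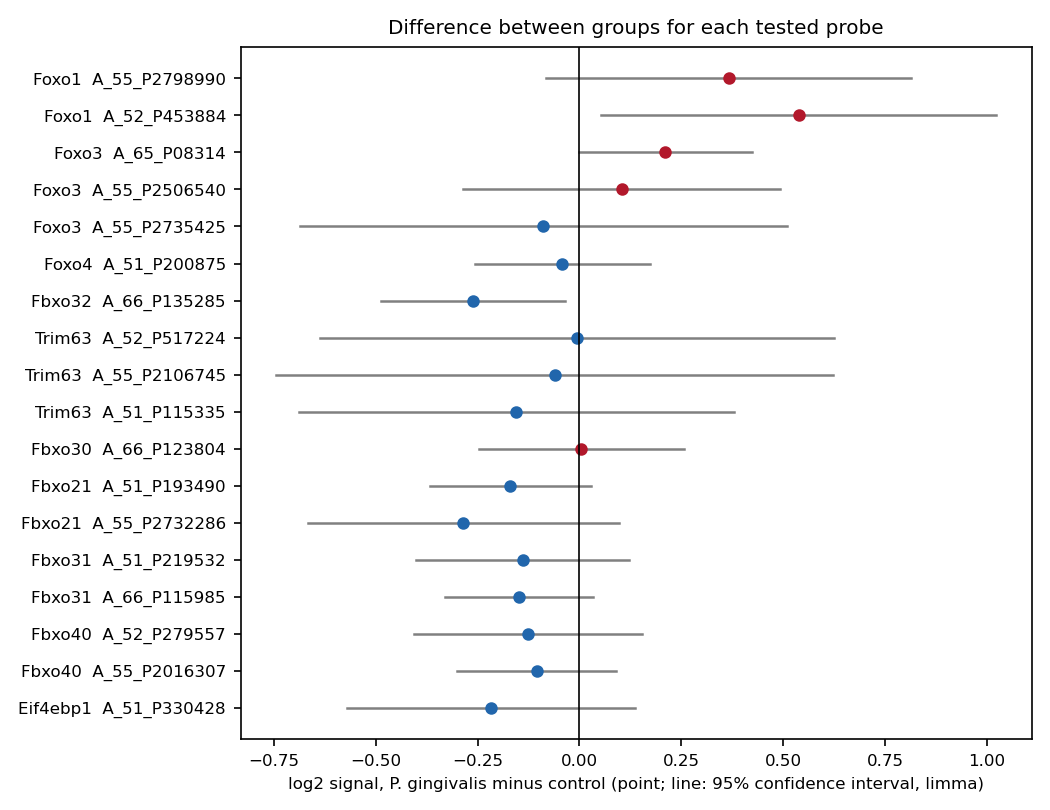
Log2 difference, P. gingivalis minus control, for each of the 18 tested probes (points, red above 0 and blue below) with its 95% confidence interval from limma (lines). The intervals of Foxo1 A_52_P453884 and Fbxo32 exclude 0 before adjustment, on opposite sides. The widest intervals are those of Trim63 and the dimmest Foxo3 probe.

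Eif4ebp1 encodes 4E-BP1, which holds back cap-dependent translation until mTORC1 phosphorylates it, and which FOXO proteins induce. Its probe, at chr8:28385887-28385946 (mm9), read 5.007, 5.002, 4.801 and 4.888 in P. gingivalis muscle and 5.158, 5.597, 4.964 and 4.846 in control muscle. Control 2 was the highest array, and controls 3 and 4 lay among the P. gingivalis arrays. The log2 difference was −0.22 ± 0.15 (SE, adjusted p = 0.618 by limma), with an interval of 0.6733-fold to 1.0995-fold. Without control 2 it was −0.06, and on the 4 arrays whose labels agree it was −0.53 (adjusted p = 0.54 by limma).

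Single arrays set much of this variation. On the brightest probe of each gene, control 2 was the highest of the 8 arrays for 6 of the 10 members, namely Foxo4, Fbxo32, Trim63, Fbxo21, Fbxo31 and Eif4ebp1. P. gingivalis 3 was the lowest for 4 of them, Foxo4, Fbxo32, Fbxo21 and Eif4ebp1. Without control 2 the Fbxo32 difference was −0.20 (adjusted p = 0.579 by limma), and without P. gingivalis 3 it was also −0.20 (adjusted p = 0.525). The count of member probes at an unadjusted p under 0.05 was 0 without control 2 and 0 without P. gingivalis 2, and 1 without control 1 or P. gingivalis 1. The median log2 difference over the 10 brightest probes was −0.08, beside −0.01 over all 16034 genes tested. It ran from −0.17 without control 4 to −0.01 without control 3, and was −0.05 without control 2 or P. gingivalis 3.

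**Figure D4:**
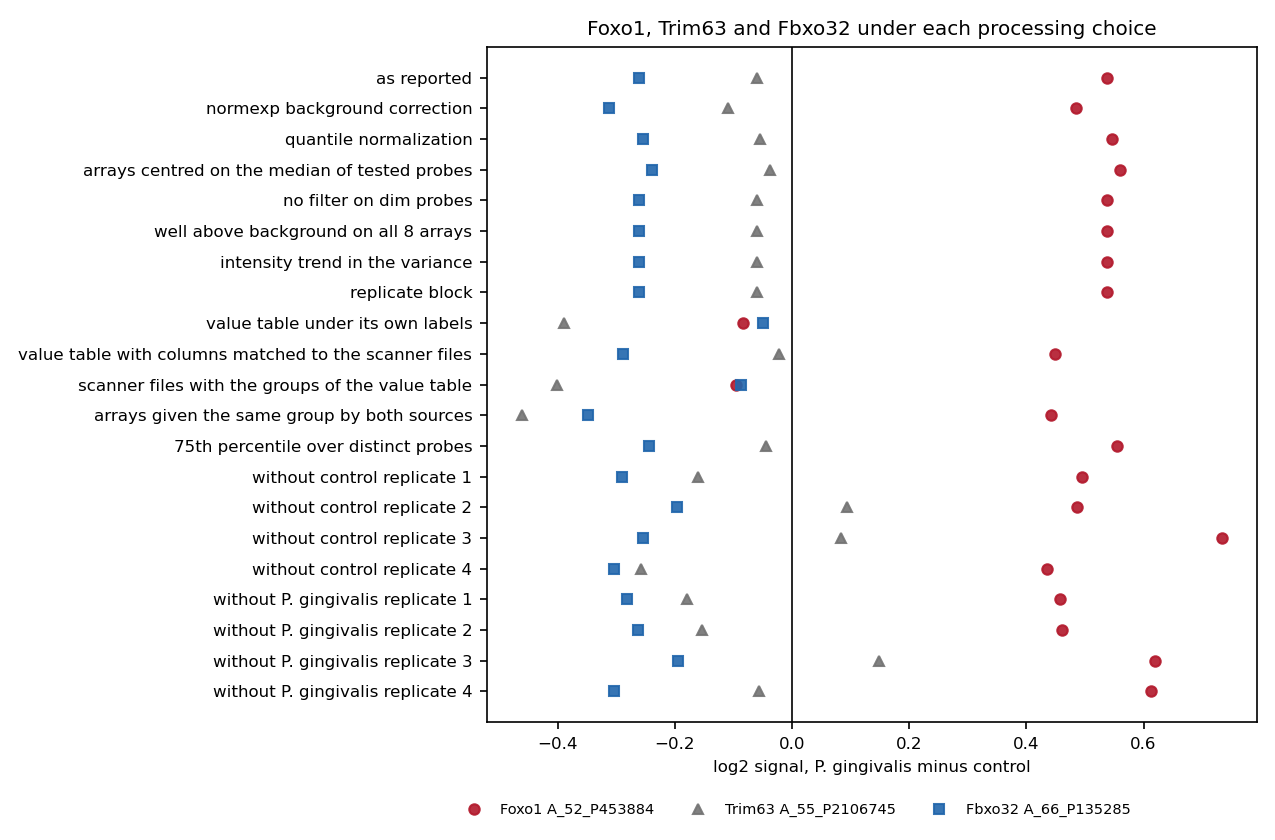
Log2 difference, P. gingivalis minus control (horizontal axis), for a probe each of Foxo1 (red circles), Trim63 (grey triangles) and Fbxo32 (blue squares) as reported and under each of 20 other processing choices (rows). The value table is the second deposited table. Foxo1 lies left of 0 only in the 2 rows that use that table's group labels, Fbxo32 lies left of 0 in all rows, and Trim63 lies right of 0 without control 2, control 3 or P. gingivalis 3.

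Other genes of the FOXO and ligase pathway were compared in 5 lists. Over all genes tested, 10.7% had an unadjusted p under 0.05, 4.86% higher and 5.83% lower in P. gingivalis muscle. The groups did not overlap for 7.07% of genes, 3.24% higher and 3.83% lower. No listed gene passed adjustment.

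Among 16 regulators of FOXO, 8 were higher and 8 lower on average (median log2 difference 0.02), and 1 had an unadjusted p under 0.05. That gene was Sirt1, a deacetylase of FOXO proteins, at 1.06 ± 0.08 in P. gingivalis and 1.22 ± 0.05 in control muscle (SD, n = 4 each), with groups that did not overlap (adjusted p = 0.42 by limma). Sgk1, an AKT-related kinase induced by glucocorticoids, had a log2 difference of 0.34 ± 0.16 (SE). Its signal was 6.38, 6.28, 5.86 and 5.93 in P. gingivalis muscle and 5.50, 5.68, 6.06 and 5.85 in control muscle, and here too control 3 was the highest control. Pik3ca, a catalytic subunit of PI3 kinase, stood at −0.12 ± 0.07.

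Among 22 FOXO target genes outside the ligases, 7 were higher and 15 lower (median −0.08), with 1 higher and 3 lower at an unadjusted p under 0.05 (18.2% of the list). Bcl6, a transcriptional repressor, had the lowest p of all the listed genes. Its log2 signal was 4.03, 4.23, 4.05 and 4.39 in P. gingivalis muscle and 4.66, 4.49, 4.75 and 4.57 in control muscle, so all P. gingivalis arrays lay below all controls. The difference was −0.44 ± 0.10 (SE, unadjusted p = 0.00182, adjusted p = 0.322 by limma), and it turned to 0.09 with the groups of the second table. Bnip3, a mitophagy receptor, stood at −0.15 ± 0.06, with groups that did not overlap. Sesn3, a sestrin that restrains mTORC1, stood at 0.20 ± 0.09. Irs2, which carries the insulin signal, was the third lower gene at −0.29 ± 0.13, and is named because the count is small.

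Among 23 other ubiquitin ligases and deubiquitinases of muscle, 9 were higher and 14 lower (median −0.04), with 0 higher and 2 lower at an unadjusted p under 0.05. Zfand5, a ubiquitin-binding protein that stimulates the proteasome, was at 6.32 ± 0.07 in P. gingivalis and 6.50 ± 0.04 in control muscle (SD, n = 4 each, adjusted p = 0.36 by limma). Nedd4, a HECT-domain ligase, was at 4.56 ± 0.04 in P. gingivalis and 4.73 ± 0.05 in control muscle (SD, n = 4 each, adjusted p = 0.36 by limma). The groups of neither overlapped. Trim72, a membrane repair protein with ligase activity, stood at −0.18 ± 0.09.

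The machinery shared by SCF ligases, with the F-box partner Skp1a, the cullin Cul1 and the E2 enzymes, showed no gene at an unadjusted p under 0.05 among 15 (median 0.00, adjusted p of at least 0.547 by limma). Skp1a stood at 0.11 ± 0.07, Ubb at −0.05 ± 0.06 and Ube2d1 at −0.07 ± 0.10. Among 18 genes of mTORC1 and cap-dependent translation, where 4E-BP1 acts, the count was also 0 (median −0.02, adjusted p of at least 0.642 by limma). Castor1, an arginine sensor, stood at 0.29 ± 0.22 and was well above background on 3 of 4 control arrays. Tsc1, which restrains mTORC1, stood at −0.08 ± 0.06 and Eif4e, the cap-binding protein, at −0.06 ± 0.06.

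**Figure D5:**
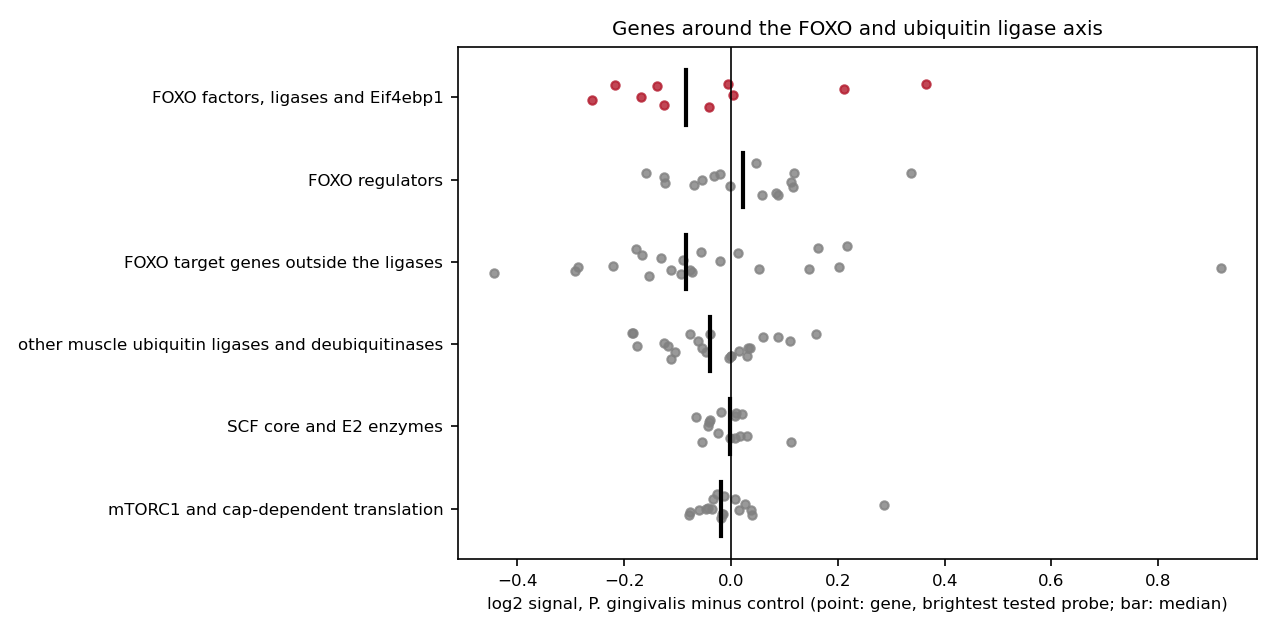
Log2 difference, P. gingivalis minus control (horizontal axis), for the 10 members (red) and for the genes of 5 related lists (grey), 1 point a gene by its brightest tested probe, with the median of each as a black bar. The medians lie between −0.08 and 0.02, and the point farthest to the right is Ddit4, a stress-induced inhibitor of mTORC1, at 0.92 with an adjusted p of 0.46 by limma.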

How the data were processed

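The authors' deposited intensity values are spot signals of a 1-colour Agilent array (Cy3, 200 ng of total RNA per sample per the labels' protocols). The file headers name the scanner software as Feature Extraction 11.0.1.1, while the submitters' processing notes give 11.1. Processed signals were background-subtracted and detrended within each array and not normalized between arrays, per the file headers. The authors also deposited a table of log2 signals for 24764 probes, normalized between arrays in a way not given in the sources used here. Its columns were matched to the scanner files by correlation (0.833 to 0.88, next best at most 0.0784), and 2 of 8 matched the array of the same label.

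Processed signals were put on the log2 scale and scaled to the 75th percentile of each array's 59305 non-control spots, outlier spots were left out and spots of a probe averaged. Tested probes (31649) were well above background on at least 4 of 8 arrays. The 2 groups were fitted in limma (3.58.1, under R 4.3.3), with p-values adjusted by Benjamini-Hochberg across every tested probe. The procedure was tested on simulated data. The changes planted there were larger than any member difference, so that trial does not cover changes as small as theirs. Probes were named through RefSeq tables of GRCm38.p6, which left 12765 unnamed. A listed gene was read by its brightest tested probe. With 4 arrays a group, their number limits the precision. The members and lists were chosen with earlier results of these data known. Named genes were the members, the 3 of lowest p in each list, and the 5 most like Foxo1 and Fbxo32. Irs2, Ddit4 and the cell type markers given by name fall outside that rule and were chosen after their values were seen. Alternatives covered background correction, normalization, filters, variance trend, replicate numbers, each array left out and both sources of labels.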

Additional observations from a re-analysis of the deposited data

Results flagged for a closer look

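In 36 groups of 4 arrays (18 tested member probes in 2 groups), 3 held an array whose gap to the nearest of the others was larger, as a share of the group's range, than Dixon's 95% limit for 4 values. Chance gives about 1 such group in 20. Foxo4 on probe A_51_P200875 was at −2.15 on P. gingivalis 3, against −1.93 to −1.90 on the other P. gingivalis arrays. Fbxo31 on probe A_51_P219532 was at 6.73 on control 2, against 6.25 to 6.32 on the other controls. Fbxo40 on probe A_52_P279557 was at 2.88 on control 3, against 2.36 to 2.45 on the other controls.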

How the results depend on the processing

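Of 33 single-probe results under 20 alternatives, 593 of 642 values kept their direction, 49 reversed and 0 crossed the adjusted threshold. The changes of filter, the intensity trend and the replicate block leave a log2 difference as it was. Their values could not reverse, and they add to the count that kept direction. Over all probes, the count past an adjusted p of 0.05 was 14 with normexp, 2 without a filter, 2 with an intensity trend and 1 in the second table matched to the scanner files, against 0 as reported (3544 at an unadjusted p under 0.05). The count at an unadjusted p under 0.05 was 9094 with normexp (78.5% higher, against 43.2% as reported), 906 in the second table, 1224 with its groups and 2821 to 4019 with single arrays left out. Centring on medians (57.5% higher), the 75th percentile over distinct probes (54.2%, chosen after seeing the data) and no filter (53.5%) also moved that split. For member probes that count was 5 with normexp, 5 with an intensity trend, 4 in the matched table, 4 on the 4 arrays whose labels agree, 1 in the second table, 1 with its groups and 0 to 3 with single arrays left out, against 2. With the replicate number as a block it was 1, and 3406 over all probes. Same-numbered arrays showed little sign of deviating together (correlations 0.0069 to 0.0629, and 1 of 8 arrays closest to its own number). Whether they share more than a number is not settled by this. The cause of these changes was not tested.

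With the second table's groups, the reversed log2 differences were −0.0743 and −0.0951 for Foxo1, −0.0731 and −0.1282 for Foxo3, 0.0311 for the dim Fbxo21 probe, 0.0935 and 0.0975 for Fbxo40, 0.0013 for Sirt1, −0.0343 for Sgk1, 0.0893 for Bcl6, −0.0037 for Sesn3, 0.0058 for Tsc1 and 0.0114 for Nedd4. In that table under its own labels they were −0.0845 for Foxo1, −0.0684 and −0.1174 for Foxo3, 0.0034 for Fbxo21, 0.0385 for Fbxo31, 0.0638 and 0.0684 for Fbxo40, 0.0051 for Pik3ca, 0.1239 for Bcl6, 0.0474 for Eif4e and 0.0898 for Nedd4. With normexp they were 0.142, 0.0287 and 0.045 for the dim probes of Foxo3, Fbxo21 and Fbxo31, and 0.0486 for Foxo4. In the matched table the dim Fbxo31 probe was at 0.0045, and where labels agree a Foxo3 probe was at −0.0244. The brightest Trim63 probe was at 0.0155 with median centring and 0.0099 with the percentile over distinct probes. With single arrays left out, the ranges that crossed 0 were −0.0251 to 0.2272 and −0.2614 to 0.1644 for the dim Foxo3 probes, −0.1041 to 0.0147 for Foxo4, −0.2116 to 0.192, −0.2578 to 0.1489 and −0.3093 to 0.0727 for Trim63, −0.0863 to 0.0747 for Fbxo30 and −0.107 to 0.0122 for Ube2d1. List medians moved to −0.0318 (second table's groups) and −0.0459 (labels agree) for FOXO regulators, −0.0528 (normexp) and −0.0511 (labels agree) for SCF genes, −0.0508 (normexp) and −0.0684 (labels agree) for mTORC1 genes, and 0.0099 (matched table) for other ligases.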

Other observations

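The share of probes with an unadjusted p under 0.05 depended on which labels were used. It was 11.2% for the scanner files under their own groups and 11.6% for the second deposited table once its columns were matched to those files. It was 3.66% for that table under its own labels and 3.87% for the scanner files with its groups. Which source carries the right groups was not settled.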
